A study of Mus musculus with 6 samples.

Results

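Death receptors are the members of the tumour necrosis factor (TNF) receptor superfamily that can start apoptosis from the cell surface, and 10 genes of this system were followed in mouse spleen 24 h after total body irradiation. The genes are the receptors Fas, Tnfrsf10b, Eda2r, Tnfrsf1a and Tnfrsf21, the ligands Fasl and Tnfsf10, the adaptor Fadd, the initiator caspase Casp8 and the caspase inhibitor Cflar. They were chosen by name, and every non-control spot of the arrays that carried one of these symbols or an alias was taken. That gave 15 probes for 10 genes, out of 55681 probes under 34741 distinct names on the array. Names without a RefSeq match, which 24300 probes carry, count as genes in the shares over all genes. All 15 probes entered the test and 13 of them were well above background on all 6 arrays. Of the 10 genes, 7 had 1 probe, Tnfrsf1a and Eda2r had 2 each and Cflar had 4.

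The study compared 2 groups of B10.BALB-16.C2A mice, a strain that the series title calls congenic. The irradiated group received 900 cGy to the whole body from an XRAD320 X-ray irradiator and its spleens were taken 24 h later. The control group, 0 cGy, consisted of resting mice. Age and sex are not given in the sources used here. Total RNA was prepared from homogenised whole splenocytes without cell sorting, each array received a pool from 3 mice, and there were 3 arrays per group, so that n = 3 is a number of pools and the p-values measure the spread between pools. Values are log2 signals over the 75th percentile of the array on Agilent one-colour 60-base probes. They serve to compare a probe between groups and not 1 gene with another. Markers of spleen cell types were present, since all 8 B cell, 8 T cell and 11 macrophage markers were well above background on every array. That does not show spleen alone, since 5 of 6 exocrine pancreas and 4 of 4 adipocyte markers were above background on every array too. The summed pancreas level was 1.95 to 73.7 times the 75th percentile on the unirradiated and 703 to 922 times on the irradiated arrays. The arrays had between 39036 and 41267 probes well above background and no saturated spot.

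In this system the ligand FasL or TRAIL (the protein of Tnfsf10) clusters its receptor, Fas or the receptor of Tnfrsf10b. The route that follows is not claimed here for Eda2r or Tnfrsf21. The death domains of Fas or of the Tnfrsf10b receptor recruit the adaptor FADD, and FADD gathers caspase-8 into a complex in which the caspase activates itself. The c-FLIP proteins made from Cflar enter the same complex and limit that activation, and the TNF receptor of Tnfrsf1a reaches it indirectly, through TRADD and RIPK1, after a first complex that signals to NF-kB. Fas, Tnfrsf10b and Eda2r are textbook target genes of p53, the transcription factor stabilised by DNA damage.

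All 5 receptor genes and both ligand genes rose after irradiation, Eda2r by a bound only, and the adaptor Fadd did not pass the test. The inhibitor Cflar rose by 0.29 on the log2 scale by its brightest probe and by 0.65 to 0.82 by the other 3, and the caspase Casp8 was lower by a small amount. The calls of Casp8 and of the brightest Cflar probe were each lost under 12 of 20 processing alternatives. Of the 10 genes, 8 were higher, Eda2r among them, and 1 was lower at an adjusted p under 0.05 (limma, Benjamini-Hochberg over all 39683 probes tested). With only the 36418 probes well above background on all 6 arrays, which leaves Eda2r out, 7 of the genes were higher and 1 was lower. Over all 26642 genes tested by their brightest probe, 58.6% passed in either direction, 28.0% higher and 30.6% lower, and over all probes 57.5% passed, 26.4% higher and 31.0% lower. The median log2 change was 1.14 for the 10 genes and 1.44 for the 5 receptors, beside -0.06 for all genes tested, and neither median of the members moves with Eda2r at its bound. The groups did not overlap for 9 of the 10 genes, Eda2r included, and for 67.3% of all genes. Eda2r passed the background filter only through the irradiated arrays and so had to differ; its change is a bound and has no place in an order of sizes. From the largest rise down to the fall, by the brightest probe, the other 9 genes ran from Tnfrsf10b through Tnfrsf1a, Fas, Tnfrsf21, Tnfsf10, Fasl, Cflar and Fadd to Casp8. By its probe with a rise of 0.82, Cflar would stand just before Fasl (0.80). The 95% interval of Tnfrsf10b did not overlap that of Tnfrsf1a, the next in the order by brightest probe. From Tnfrsf1a through Fas, Tnfrsf21 and Tnfsf10 to Fasl, each interval overlapped that of the next gene.

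**Figure D1:**
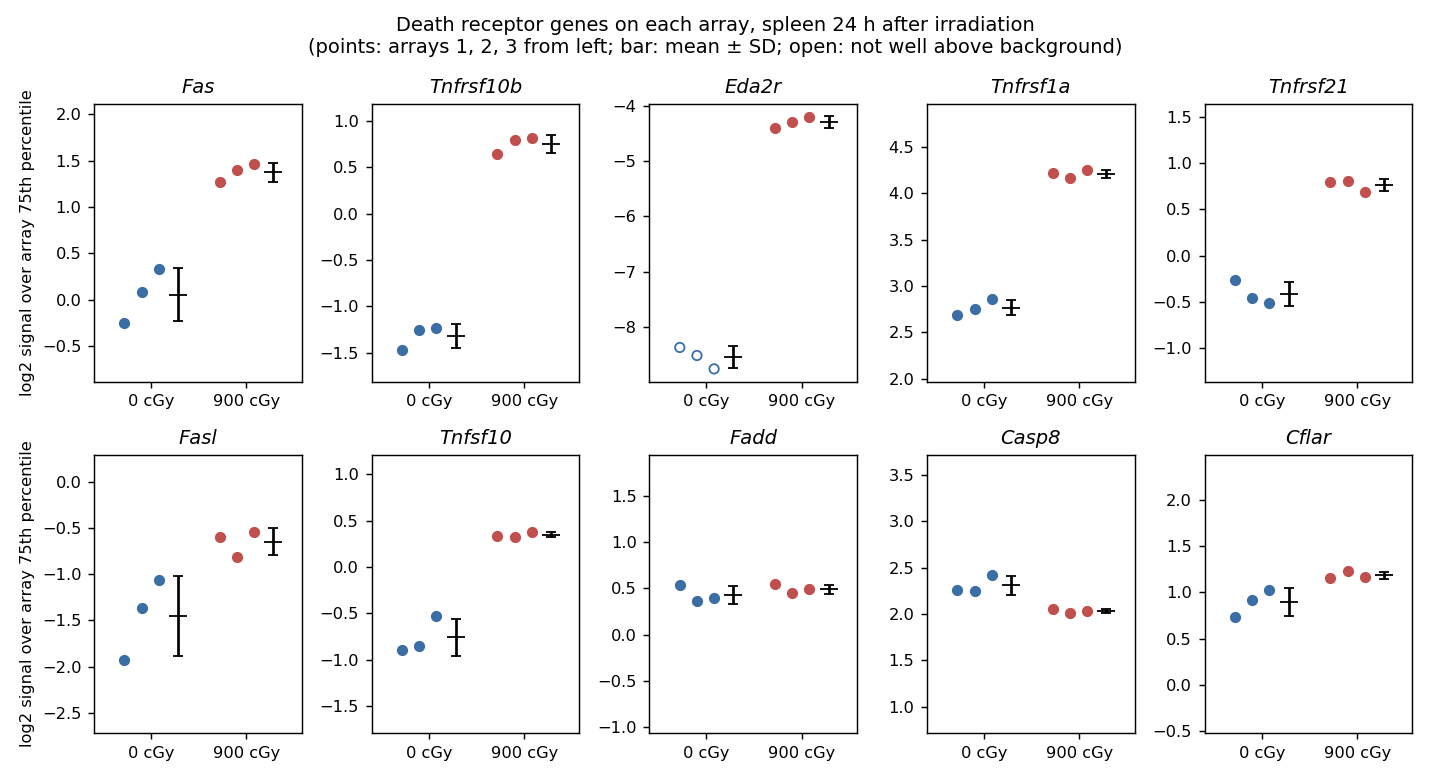
Log2 signal over the array's 75th percentile for the brightest probe of each of the 10 genes, 1 panel per gene, with the 3 unirradiated arrays in blue, the 3 irradiated arrays in red and the mean ± SD in black; panels other than Eda2r span an equal log2 range. The groups are separated in every panel except that of Fadd, and the open Eda2r points were not well above background.

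Fas is the receptor for FasL. Its signal on the unirradiated arrays was -0.25, 0.08 and 0.33, and on the irradiated arrays it was 1.27, 1.39 and 1.47. Every irradiated pool lay above every unirradiated pool, and the unirradiated pools were the more spread. The mean went from 0.05 ± 0.29 to 1.38 ± 0.10 (SD, n = 3), a log2 rise of 1.32 ± 0.16 (SE; 95% interval 0.94 to 1.70) or 2.50-fold, with an adjusted p of 0.000637 (limma). Of all genes tested, 9.09% rose more. The probe lies at chr19:34402164-34402223 on the plus strand (mm9) and was designed on the transcript of Fas from its base 1389. The first 30 bases of this probe and of the Tnfrsf10b probe are shown because each of these 2 receptors was read by a single probe.

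Fas A_55_P2091676: gaagaccttccattgatggacagttctttt
Tnfrsf10b A_55_P2027836: gatgtccttttctagtgtgtttgaagccag

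Tnfrsf10b encodes the TRAIL receptor of the mouse, DR5. The unirradiated arrays gave -1.47, -1.26 and -1.24 and the irradiated arrays 0.64, 0.80 and 0.81. The groups were far apart relative to the spread within them. The log2 rise was 2.07 ± 0.11 (SE; 95% interval 1.82 to 2.33), or 4.21-fold, with an adjusted p of 6.68e-05 (limma), and 1.95% of all genes tested rose more. The probe lies at chr14:70184141-70184200 (mm9, plus strand).

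Eda2r, the X-linked receptor for the A2 form of ectodysplasin (XEDAR), was well above background on all 3 irradiated arrays and on no unirradiated array, with both of its probes. With probe A_51_P161323 the deposited processed intensity was 3.53, 3.15 and 3.24 units in the unirradiated pools and 54.1, 57.1 and 64.5 in the irradiated pools. The irradiated signals were dim but close to each other. Because the low side is only a bound, the rise of Eda2r was put at 4.07-fold or more by this probe. By the second, A_66_P122860, it was put at 2.46-fold or more. The limma fit gave adjusted p of 4.53e-05 and 0.000816, which are no support for the rise, since the filter had already fixed it. The bound sets the irradiated mean against the lowest signal that counted as well above background on each unirradiated array, and it holds for this processing only. That flag was given spot by spot, so the limit at the Eda2r spots can lie above this lowest signal. The bound is then too high, and it is not a guaranteed minimum. With normexp background correction, which added an offset of 50 units, followed by quantile normalization the fitted log2 difference was 0.93, below this bound. That offset is large beside these intensities and shrinks their ratio, so the value does not test the bound. The probes lie 2961 bp apart on the X chromosome, at chrX:94531320-94531379 and chrX:94534281-94534340 (mm9, minus strand).

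Tnfrsf1a, the TNF receptor with a death domain, rose with both probes. Probe A_52_P192426 gave 2.69, 2.75 and 2.86 on the unirradiated and 4.22, 4.17 and 4.25 on the irradiated arrays, with no overlap and little spread in either group. The log2 rise was 1.44 ± 0.09 (SE; 95% interval 1.24 to 1.65), or 2.72-fold (adjusted p 8.08e-05, limma). The second probe, A_55_P2051099, lies 454 bp away in the same transcript and gave a rise of 1.36, or 2.56-fold (adjusted p 0.000105). The probes are at chr6:125312376-125312435 and chr6:125311922-125311981 (mm9, plus strand).

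Tnfrsf21 encodes death receptor 6, which has a death domain and binds neither FasL nor TRAIL. Its unirradiated values were -0.26, -0.46 and -0.52 and its irradiated values 0.79, 0.80 and 0.68. Again the groups did not overlap. The log2 rise was 1.17 ± 0.10 (SE; 95% interval 0.93 to 1.41), or 2.25-fold (adjusted p 0.000192, limma; probe at chr17:43225326-43225385, mm9, plus strand).

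Both ligand genes rose. Tnfsf10 (TRAIL) was at -0.90, -0.86 and -0.53 on the unirradiated and 0.33, 0.33 and 0.38 on the irradiated arrays. The irradiated pools were nearly equal and all were above the controls. The log2 rise was 1.11 ± 0.12 (SE; 95% interval 0.82 to 1.39), or 2.15-fold (adjusted p 0.000427, limma; probe at chr3:27238508-27238567, mm9, plus strand).

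Fasl (FasL), which cytotoxic T cells and NK cells make, was at -1.92, -1.36 and -1.07 on the unirradiated and -0.59, -0.81 and -0.54 on the irradiated arrays. The groups did not overlap, but the controls spread over 0.86 log2 units, more than the difference between the means. The log2 rise was 0.80 ± 0.22 (SE; 95% interval 0.27 to 1.33), or 1.74-fold (adjusted p 0.0202, limma; probe at chr1:163711056-163711115, mm9, minus strand). Fasl no longer passed the threshold under 6 of 20 alternatives, among them scaling to the spike-in probes (0.52, adjusted p 0.0583) and a fit with the exocrine pancreas score of the array as a covariate (0.16, adjusted p 0.762). It was also lost without irradiated replicate 1 or without irradiated replicate 3.

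**Figure D2:**
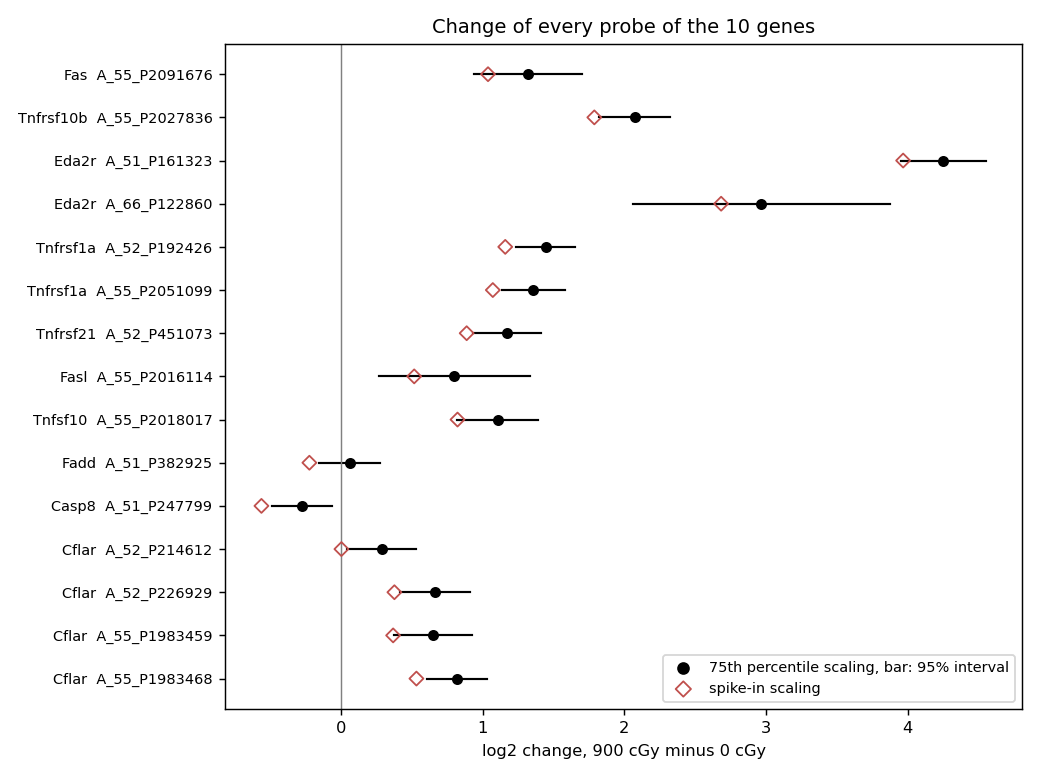
Log2 change (900 cGy minus 0 cGy) of all 15 probes with its 95% interval from limma (black) and the change after scaling to the spike-in probes (red diamonds). The receptor and ligand probes other than those of Eda2r lie to the right of 0 under both scalings, Casp8 lies to the left, and Fadd lies near 0. The Eda2r probes passed the filter only through the irradiated arrays and so had to lie to the right. Their points and intervals are not estimates of the size of the change. The Cflar probe A_52_P214612 lies to the right of 0 with its whole interval, and near 0 after spike-in scaling.

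Fadd, the adaptor between receptor and caspase, was at 0.54, 0.36 and 0.40 on the unirradiated and 0.54, 0.45 and 0.49 on the irradiated arrays, and the groups overlapped. The log2 difference was 0.06 ± 0.09 (SE; 95% interval -0.15 to 0.28; adjusted p 0.587, limma), and with spike-in scaling it was -0.22 (adjusted p 0.366). The interval holds 0 and leaves out the sizes of change seen for the receptors. The position given for the probe, chr7:151764228-151764267 (mm9, minus strand), spans fewer than its 60 bases.

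Casp8, the initiator caspase, was at 2.26, 2.24 and 2.42 on the unirradiated and 2.05, 2.01 and 2.04 on the irradiated arrays. All irradiated pools were below all controls, by a narrow margin. The log2 change was -0.28 ± 0.09 (SE; 95% interval -0.49 to -0.06), or 1.21-fold lower, with an adjusted p of 0.0340 (limma). This call did not hold under 12 of 20 alternatives, where the change ran from -0.56 to -0.20 over all 20 and the adjusted p from 0.0138 to 0.323. It was lost without unirradiated replicate 2 and without irradiated replicate 1, 2 or 3.

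Of Cflar and Tnfrsf1a, the genes above background in both groups with several probes, Cflar was the one whose probes differed in the size of their change. Its 4 probes lie on chromosome 1 (mm9, plus strand), the brightest, A_52_P214612, at chr1:58770546-58770605 in a transcript known to the array by an Ensembl identifier. Probe A_55_P1983468, at chr1:58789994-58790053, was designed on transcript variant 2, and probes A_55_P1983459, at chr1:58810660-58810719, and A_52_P226929, at chr1:58811116-58811175, on transcript variant 1. Their sequences are given because the result for Cflar depends on which of them is read, followed by the single probe of Casp8. Those of A_55_P1983459 and Casp8 are whole and the others are the first 30 of 60 bases.

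Cflar A_52_P214612: gggacttgggaagttggagagctgactcct
Cflar A_55_P1983468: ctttcttgctgatgtataaattgcctcctt
Cflar A_55_P1983459: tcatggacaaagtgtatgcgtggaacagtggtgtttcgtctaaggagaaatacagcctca
Cflar A_52_P226929: gatttgacactgaatgtaacttgagactta
Casp8 A_51_P247799: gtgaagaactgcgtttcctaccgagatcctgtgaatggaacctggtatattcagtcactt

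The brightest Cflar probe was at 0.74, 0.92 and 1.03 on the unirradiated and 1.16, 1.23 and 1.16 on the irradiated arrays. The groups did not overlap, but the highest control came close to the lowest irradiated pool. The log2 rise was 0.29 ± 0.10 (SE; 95% interval 0.04 to 0.53), or 1.22-fold, at an adjusted p of 0.0489 (limma). This value lies at the edge of the threshold, and 12 of 20 alternatives lost it, among them spike-in scaling (0.0033, adjusted p 0.99) and leaving out any 1 of unirradiated replicates 1 and 2 or irradiated replicates 1, 2 and 3.

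The other Cflar probes rose more. The variant 2 probe A_55_P1983468 was at -0.03, 0.04 and 0.06 on the unirradiated and 0.86, 0.75 and 0.92 on the irradiated arrays, a rise of 0.82 (adjusted p 0.000423, limma). The variant 1 probes A_52_P226929 and A_55_P1983459, which lie 456 bp apart, rose by 0.66 (adjusted p 0.00191) and 0.65 (adjusted p 0.00312). With spike-in scaling the 3 changes were 0.53 (adjusted p 0.0299), 0.38 (0.123) and 0.37 (0.127). Within each array, where scaling cancels, the log2 signal of the variant 2 probe relative to the brightest probe shifted by 0.53 and those of the variant 1 probes by 0.37 each. In each of these 3 differences the groups did not overlap (exact permutation test, two-sided, p 0.1, which is the lowest value 3 arrays against 3 allow). How often probe pairs of other genes separate in this way was not computed. The brightest probe lies 19448, 40114 and 40570 bp upstream of the other probes, which shows where along the gene the unequal signals were read. The mean of the 4 probes rose by 0.60 (adjusted p 0.00155, limma).

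**Figure D3:**
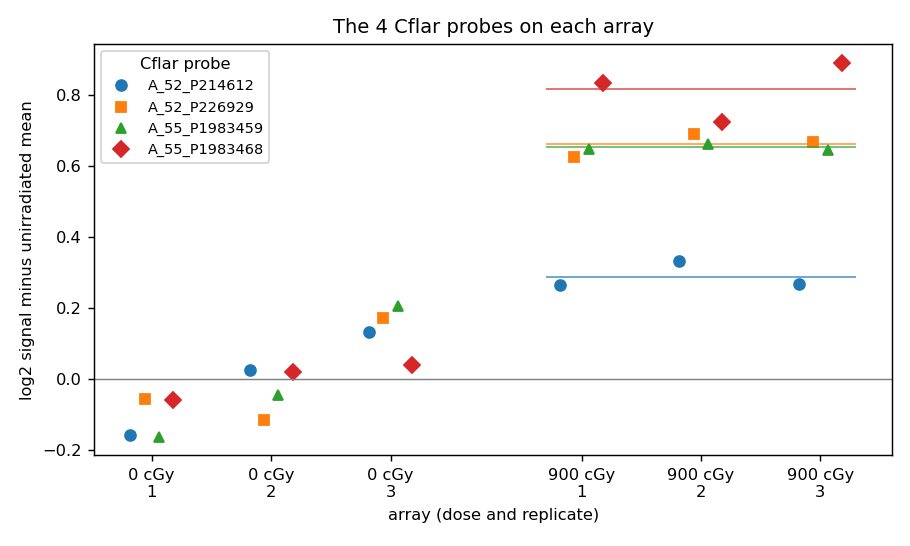
Log2 signal of each of the 4 Cflar probes on each of the 6 arrays, after subtraction of that probe's unirradiated mean; lines mark the irradiated means. The variant 2 probe A_55_P1983468 (red) lies highest on every irradiated array and the brightest probe A_52_P214612 (blue) lowest.

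Ratios of 2 genes within an array do not depend on the scaling between arrays and show only whether their changes were unequal. The log2 ratio of Cflar to Casp8, inhibitor over caspase, went from -1.41 to -0.85, a shift of 0.56 (0.51 to 0.61 when each array was left out in turn). With the mean of the Cflar probes the shift was 0.88. For receptor over ligand, Fas to Fasl shifted by 0.52 and Tnfrsf10b to Tnfsf10 by 0.97. The ratio of the receptor Fas to the adaptor Fadd shifted by 1.26. In all 4 ratios the irradiated arrays lay above the unirradiated ones, and the two-sided exact permutation p was 0.1 for each, also after adjustment over the 4, which is the smallest possible with 3 arrays per group. The share of other gene pairs whose ratios separate the groups was not computed. Of all genes, 67.3% did not overlap by themselves, so this separation does not set the 4 ratios apart.

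The calls of Tnfsf10 and of the receptors other than Eda2r held under most alternatives. Tnfrsf10b, Tnfsf10, Tnfrsf1a and Tnfrsf21 passed the threshold under all 20 alternatives and Fas under 19 of 20. Scaled to the spike-in probes, in place of the 75th percentile, the median of all probes was -0.36 in place of -0.07 and 28.7% of called probes were higher in place of 46.0%. On that scale Tnfrsf10b rose by 1.79, Tnfrsf1a by 1.16, Fas by 1.04, Tnfrsf21 by 0.89 and Tnfsf10 by 0.82, and Casp8 changed by -0.56 (adjusted p 0.0245). Within the slide row that held all unirradiated arrays and irradiated replicate 1, the changes were 1.96 for Tnfrsf10b, 1.45 for Tnfrsf1a, 1.21 for Fas, 1.21 for Tnfrsf21, 1.09 for Tnfsf10 and 0.86 for Fasl, and the last of these did not pass there (adjusted p 0.125, limma).

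The 38 other genes of the pathway moved in both directions. Of 37 tested (Edar was not), 16 were higher, 8 lower and 13 did not pass, with a median log2 change of 0.05, beside 28.0% higher and 30.6% lower among all genes. With spike-in scaling 6 were higher and 13 lower, beside 6556 higher and 16278 lower among all 39683 probes tested. The spike-in counts by role that follow stand beside the same array-wide shift. Among the other receptors and decoys, 4 of 7 were higher and 1 lower, and with spike-in scaling 3 were higher and 3 lower. Tnfrsf11b (osteoprotegerin, a soluble decoy that binds TRAIL and RANKL) rose by 1.93, Tnfrsf1b (the TNF receptor without a death domain) by 1.07 and Ngfr (a receptor of neurotrophins with a death domain) by 0.98, with adjusted p of 0.00049, 0.000456 and 0.00029 (limma). Tnfrsf26 fell by 1.60 (adjusted p 0.000172). Of its neighbours on chromosome 7, Tnfrsf23, a decoy for TRAIL, rose by 0.44 (adjusted p 0.00524) and was at 0.16 with spike-in scaling (adjusted p 0.523). Tnfrsf22 was at -0.18 (adjusted p 0.152) and at -0.46 with spike-in scaling, where it passed as lower (adjusted p 0.0494).

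The ligands of the list split evenly, with 2 higher and 2 lower, and with spike-in scaling 1 was higher and 2 lower. Tnf and Lta, which both bind the receptor of Tnfrsf1a, fell by 1.01 and 0.77 (adjusted p 0.000443 and 0.00603, limma) while that receptor rose. Tnf was at -0.36, -0.36 and -0.23 on the unirradiated and -1.20, -1.50 and -1.28 on the irradiated arrays, with a wide gap between the groups. Tnfsf15 (TL1A, the ligand of death receptor 3) rose by 0.97 (adjusted p 0.000251) and Eda, whose A2 form binds the Eda2r receptor, by 0.61 (adjusted p 0.00334). Eda was at 0.33 with spike-in scaling and did not pass there (adjusted p 0.162).

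Of 19 adaptors and complex members, 6 were higher, 4 lower and 9 did not pass, and with spike-in scaling 1 was higher and 6 lower. Tradd (0.08), Ripk1 (0.05) and Traf2 (-0.02), the core of the first complex at the TNF receptor, were with Fadd among those that did not pass, as was Tnfaip3 (0.05), the feedback inhibitor A20. The largest rises were those of Pea15a (1.23, adjusted p 0.000163, limma), a death effector domain protein, Cradd (0.71, adjusted p 0.000444), an adaptor for caspase-2, and Birc2 (0.58, adjusted p 0.00312), the ubiquitin ligase cIAP1. The largest falls were those of Dedd2 (-1.15, adjusted p 0.000265) and Casp8ap2 (-0.88, adjusted p 0.000357), proteins that carry or bind death effector domains, and of Birc3 (-0.74, adjusted p 0.00631), the close relative of Birc2. With spike-in scaling Cradd (0.43, adjusted p 0.0714) and Birc2 (0.30, adjusted p 0.222) did not pass, and Pidd1 (-0.95, adjusted p 0.00356) and Sharpin (-0.54, adjusted p 0.0277), which had not passed before, were lower.

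Of 7 effectors, 4 were higher and 1 lower, and with spike-in scaling 1 was higher and 2 lower. Mlkl, which permeabilises the membrane in necroptosis, rose by 1.98 (adjusted p 0.000232, limma), from -0.97, -1.23 and -1.66 on the unirradiated to 0.58, 0.73 and 0.77 on the irradiated arrays. Its groups were separated by more than the spread within either. Bid, whose protein caspase-8 cleaves to carry the signal to mitochondria, fell by 1.04 (adjusted p 0.000228).

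**Figure D4:**
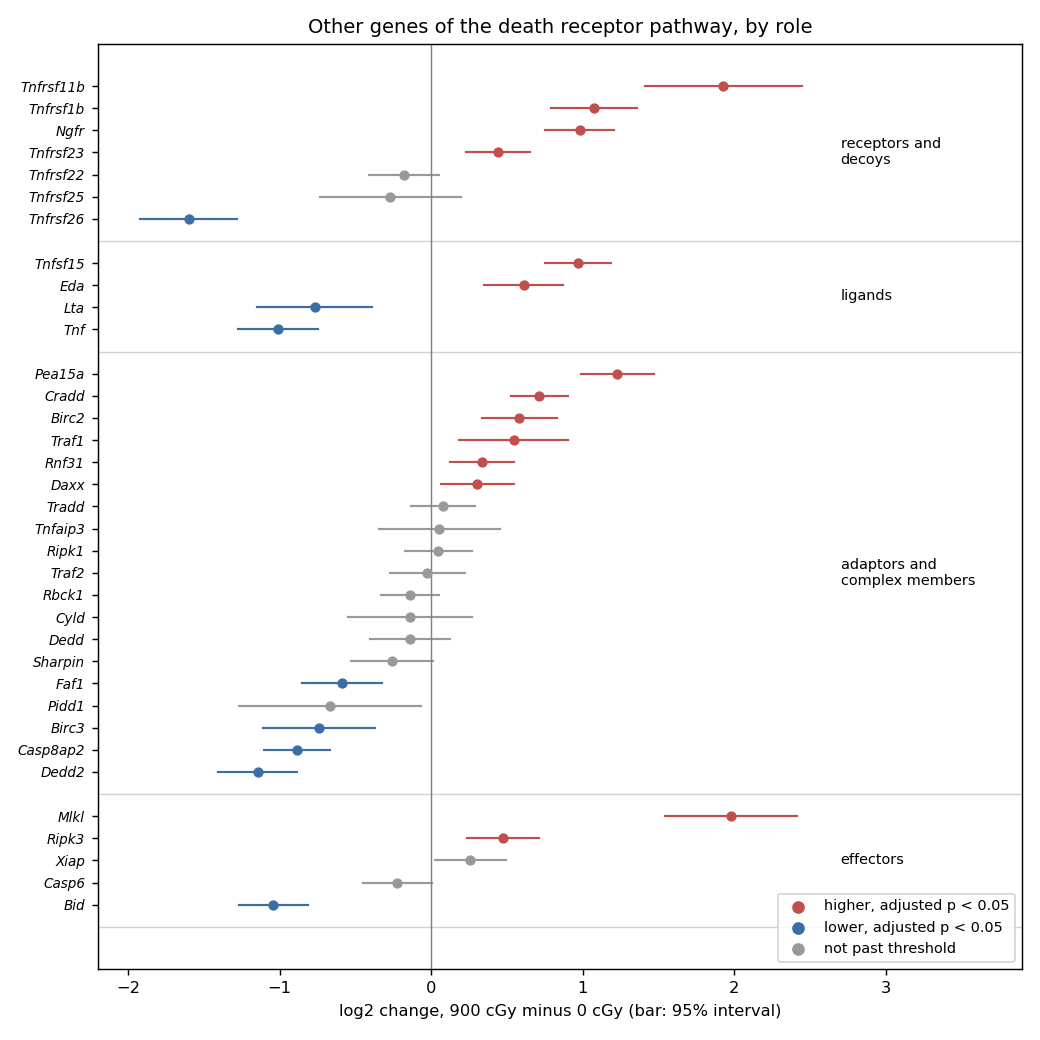
Log2 change (900 cGy minus 0 cGy) with 95% interval for 35 of the 37 tested genes of the pathway list, grouped by role; red, blue and grey mark higher, lower and not past the threshold. The list spreads on both sides of 0, from Tnfrsf26 at -1.60 to Mlkl at 1.98.

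Over the 6 arrays the profile most like that of Tnfrsf10b, each profile being centred on its unirradiated mean, was that of Fap, with a root mean square log2 difference of 0.0656, followed by Pnmal2 (0.0672) and Slc16a9 (0.0683), and 15 of 16795 candidate genes lay within 0.1. For Tnfrsf1a the nearest were Pcdhb21 (0.0178), Timp2 (0.0218) and Plod2 (0.0320), with 263 genes within 0.1. With 2 groups of 3 arrays such likeness is set mostly by the size of the change between the groups.

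The cell type markers of these spleens shifted with the same contrast, and in bulk RNA fewer cells of a type and less RNA per cell cannot be told apart. All 8 B cell markers and 7 of 8 T cell markers were lower, with the summed level of the B cell list going from 290 to 375 times the 75th percentile on the unirradiated arrays to 50.01 to 55.7 on the irradiated ones and that of the T cell list from 66.0 to 94.5 down to 27.8 to 28.5. All 7 erythroid markers were lower (129 to 309 against 8.03 to 13.0). All 11 macrophage markers were higher (184 to 213 against 718 to 744), as were 4 of 5 endothelial markers (9.25 to 10.9 against 24.5 to 25.3), 5 of 5 stromal markers (39.2 to 46.5 against 88.1 to 96.2) and 4 of 4 adipocyte markers (2.09 to 3.07 against 31.1 to 35.0). Of 7 NK cell markers, 3 were higher and 2 lower (19.0 to 25.4 against 25.1 to 30.8), and of 5 neutrophil markers 1 was higher (295 to 517 against 371 to 417). None of these lists had a marker below background on all arrays of a group. The part of these shifts in the changes of the receptor and ligand genes was not tested.

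Exocrine pancreas markers moved with the contrast as well. All 6 were higher, with a summed level of 1.95 to 73.7 on the unirradiated and 703 to 922 on the irradiated arrays, and their mean log2 level was -3.61, 3.19 and 1.005 on unirradiated replicates 1 to 3 and 6.81, 7.18 and 6.75 on the irradiated arrays. With that mean, which itself separates the groups, as a covariate 5 of the 10 genes remained past the threshold: Eda2r, which had to differ, Tnfrsf10b (1.84), Tnfrsf21 (1.39), Tnfrsf1a (1.36) and Tnfsf10 (0.99). Fas was at 0.92 (adjusted p 0.0601, limma). Unirradiated replicate 1 was the lowest of the controls for 6 of the 10 genes (Fas, Fasl, Tnfrsf10b, Tnfsf10, Tnfrsf1a and Cflar). Unirradiated replicate 2 was the highest for 0 and replicate 3 for 7. The order for Eda2r lies below background. The same tally over all genes was not made, so these counts do not set the members apart. Of the controls, replicate 1 had the lowest pancreas level, replicate 2 the highest, and replicate 3 the highest summed B cell and T cell levels. The part of these differences in the spread of the controls was not tested.

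**Figure D5:**
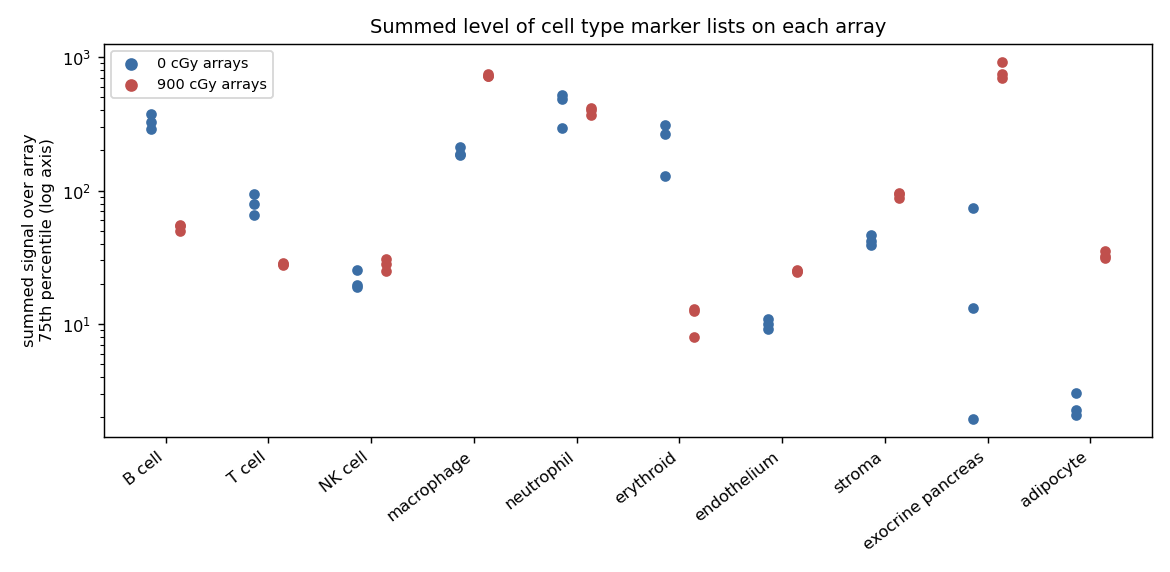
Summed signal of each cell type marker list over the array's 75th percentile, on a log axis, for the 3 unirradiated (blue) and 3 irradiated (red) arrays. B cell, T cell and erythroid lists are lower on all irradiated arrays, and macrophage, endothelium, stroma, exocrine pancreas and adipocyte lists are higher.

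No motif searched was common to all the member promoters at hand. RefSeq (GRCm38.p6) gave the 250 bases before to 50 after the start for 9 of the 10 genes, and Tnfrsf10b was not among them. Searched on both strands, with overlaps allowed, a GC box (GGGCGG) was present in those of Fas, Fasl, Eda2r, Tnfrsf21 and Fadd and is found in 35.7% of 32851 promoters. A match to the p53 half-site was present in Fasl and in no other member promoter searched (8.36% of all promoters), and none searched held an NF-kB site (8.46%). The core of the interferon-stimulated response element occurred in Cflar only (3.44%), CCAAT in Casp8, Fasl, Tnfsf10 and Eda2r (37.4%) and TATAAA in Cflar and Eda2r (13.6%). A match is a description of letters in this window, and bases outside it were not searched. The promoters of the ligand and receptor pair Fasl (chr1:161788446-161788745, minus strand) and Fas (chr19:34290409-34290708, plus strand) are printed 5′ to 3′ because they hold the p53 half-site match and paired GC boxes, with these matches in capitals.

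Fasl promoter: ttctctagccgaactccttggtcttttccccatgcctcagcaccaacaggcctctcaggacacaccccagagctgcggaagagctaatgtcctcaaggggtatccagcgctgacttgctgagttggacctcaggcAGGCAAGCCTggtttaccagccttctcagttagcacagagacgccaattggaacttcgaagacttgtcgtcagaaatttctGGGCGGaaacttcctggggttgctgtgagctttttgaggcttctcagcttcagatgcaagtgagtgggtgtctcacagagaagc
Fas promoter: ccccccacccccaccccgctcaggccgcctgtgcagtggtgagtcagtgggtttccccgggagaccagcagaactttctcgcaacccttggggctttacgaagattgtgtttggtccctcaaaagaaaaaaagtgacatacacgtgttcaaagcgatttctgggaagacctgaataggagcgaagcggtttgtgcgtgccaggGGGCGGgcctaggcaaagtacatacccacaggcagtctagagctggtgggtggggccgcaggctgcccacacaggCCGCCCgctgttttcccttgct

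In Fasl the p53 half-site match starts 115 bases before the gene's start and the GC box 34 before it. In Fas a GC box lies 47 bases before the start and another, on the opposite strand, at base 29 after it.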

How the data were processed

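The authors read the arrays with Agilent Feature Extraction 10.5.1.1, per the submitters' processing notes and the file headers. The deposited intensity values used here are the processed signal, background-subtracted within the array and not normalized between arrays, and, for alternatives, the mean spot and background signals. The value table the authors deposited is in log2 units. It matched the scanner values (Pearson r over probes above 0.9999 on each array, same direction) after division by the 75th percentile and removal of the probe's median over the arrays. Its column medians were 0.0473, -0.00588, -0.046, -0.0252, 0.0181 and -0.00829. Probe positions are those of the files (mm9).

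Log2 processed signals were scaled to each array's 75th percentile of 59305 non-control spots (1114 to 1403 units). Spots of 1 probe were averaged, outlier spots (91 to 146 per array) left out, and 39683 probes well above background on all 3 arrays of a group tested with limma 3.58.1 in R 4.3.3 (lmFit, eBayes, two-sided, Benjamini-Hochberg, threshold 0.05). The brightest probe stands for a gene. Of the probes, 27235 were named by accession, 3581 by symbol and 565 by synonym from RefSeq tables of GRCm38.p6, and 24300 kept the file's name. The self-test on simulated data, a change placed in known probes, was run with the same script.

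Named genes were the members and, in each role of the pathway list, up to 3 with the largest change past the threshold in each direction, beside 3 genes alike for each of 2 members; Tnfrsf22, Tnfrsf23, Tradd, Ripk1, Traf2, Tnfaip3, Pidd1 and Sharpin were chosen after their values were seen. Individual results of 2 pathway genes are not reported here. The members and lists were chosen with earlier results of these data known. Alternatives were other scalings, background corrections, filters, probe rules and blocks, a pancreas covariate and leaving out each array.

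Same-numbered pools deviated together little (r = 0.07, 0.11 and -0.01 over probes), so replicate numbers were not taken as pairs. The sets of 8 spike-in probes served for spike-in scaling.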

Additional observations from a re-analysis of the deposited data

How the results depend on the processing

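Many counts moved with the processing. The larger moves follow, and their cause was not tested. Counts of higher genes among the 10 below include Eda2r, which had to differ. With spike-in scaling 6556 probes were called higher and 16278 lower, and 6 of the 10 genes were higher. The pathway list then had 6 genes higher and 13 lower, and Fadd changed sign, to -0.22. With slide row as a block 7728 probes were higher and 9263 lower, 6 of the 10 genes were higher, and 11 pathway genes were higher and 6 lower. With slide row 1 alone, which leaves 1 irradiated array assumed to vary like the controls, 6046 probes were higher and 5968 lower, with 8 and 5 pathway genes. With the pancreas score as a covariate 5397 probes were higher and 3991 lower, with 5 of the 10 genes and 7 pathway genes higher. The count of 1 lower gene among the 10 (Casp8) became 0 under median scaling, normexp background correction, normexp with quantile normalization, no filter on dim probes, slide row as a block or alone, and the pancreas covariate. At an unadjusted p under 0.05 (limma) that count was 1 with median scaling and without the filter, and 0 with both normexp settings, both slide row settings and the covariate.

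With the replicate block, 9934 probes were higher and 11296 lower, 7 of the 10 genes were higher and 0 lower (1 at an unadjusted p under 0.05), Casp8 having an adjusted p of 0.0778 and Cflar of 0.0846 (limma), and 14 pathway genes were higher and 8 lower; the numbers do not pair the samples.

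Leaving out each array in turn gave 8933 to 10807 probes higher and 10107 to 13006 lower, 6 to 8 of the 10 genes higher and 0 to 1 lower, and 12 to 16 pathway genes higher and 8 to 10 lower. The log2 ratio shifts were 0.51 to 0.61 for Cflar to Casp8, 0.43 to 0.61 for Fas to Fasl, 0.89 to 1.05 for Tnfrsf10b to Tnfsf10 and 1.06 to 1.42 for Fas to Fadd. Signal over background limits Eda2r, whose unirradiated level is only a bound. The number of arrays limits the precision of the small changes of Fadd, Casp8 and Cflar. Their size also depends on the scaling, being -0.22, -0.56 and 0.0033 with spike-in scaling.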

Other observations

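Cflar and Casp8 lie near each other on chromosome 1 in the order Flacc1, Cflar, Gm39646, Casp8 in the RefSeq table of GRCm38.p6. The 3 of them that were tested did not change alike: Flacc1 was at a log2 change of 1.36 (adjusted p 0.000769, limma), Cflar at 0.29 by its brightest probe and Casp8 at -0.28. Flacc1 was also the gene whose profile over the 6 arrays lay nearest to that of Fas (root mean square log2 difference 0.0385, with 89 genes within 0.1). These genes were singled out after their values were seen.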
